A study of Homo sapiens with 8 samples.

Results

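JAG1, EPHB2 and EPHB3 are genes that pattern the intestinal crypt, and their binding by dnTCF1E was followed across 6 lists of ChIP-seq peaks. A peak was assigned to a member if the list named that gene as the one with the nearest transcription start site (TSS). This gave 13 of the 23433 listed peaks, 8 for JAG1, 4 for EPHB3 and 1 for EPHB2, out of 10699 genes named in any list.

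The study expressed FLAG-tagged dnTCF1E, a dominant negative form of TCF1 that keeps the C-clamp, from a doxycycline-inducible construct in DLD1 colon cancer cells, which have high endogenous Wnt signaling. The clonal dnTCF1EWT line carried the wild-type C-clamp and the dnTCF1Emut line a C-clamp with amino acid substitutions that abolish its DNA binding. Each line was crosslinked before induction (0 h, no doxycycline) or after 2 or 9 h of 1 ug/mL doxycycline, and all lines were grown with blasticidin and zeocin before induction and immunoprecipitated with anti-FLAG beads. The dnTCF1EWT lists held 1907, 5585 and 12996 peaks at 0, 2 and 9 h, and the dnTCF1Emut lists 708, 1883 and 354. The authors pooled duplicates into 1 list per condition, so no spread between replicates and no test between conditions can be given. The peak score, the MACS score that grows with the negative logarithm of the P-value, is not scaled for sequencing depth, and the depth is unknown from the lists. A site that is absent from a list scored below the threshold of about 50 or was not called, and is described as not listed. Cell line, library and protein cannot be told apart between the dnTCF1EWT and dnTCF1Emut lists.

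LEF/TCF proteins bind the Wnt Response Element (WRE) through a High Mobility Group box, and the C-clamp of the E isoforms binds GC-rich Helper sites. In the crypt, Wnt signaling is strongest at the base. EPHB2 and EPHB3 are receptor tyrosine kinases of the crypt base that sense ephrin-B ligands on neighboring cells, and the resulting repulsion helps to keep proliferating and differentiated cells in place. JAG1 is a transmembrane ligand of the Notch receptors and couples Wnt signaling to Notch signaling, which maintains progenitor cells in the crypt.

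The deposited lists count matches to 3 motifs in each peak on either strand. They are the WRE (CTTTG, then A or T, then A or T, then C or G), the short Helper site (ACCG or GCCG) and the Helper site (ACCGCC or GCCGCC), and each Helper site is also counted as a short Helper site. Sequence of the hg19 build was not used here, so the bases of the peaks are not shown. RefSeq promoter windows of GRCh38.p14, from 250 bases before to 50 bases after the TSS, were available for all 3 genes, and the Helper match nearest upstream of each TSS is printed because the promoters of the 3 genes can be compared with what was bound. Each line gives 30 bases of the gene's strand, 5′ to 3′, with the match in capitals.
JAG1: tggttcttctacGCCGCCctgagcatcccg
EPHB2: acgcgcgcggggGGCGGTggcctggcgagg
EPHB3: accagcgggcctGGCGGTctgtgagtgggt
The JAG1 window lies on the minus strand at chr20:10674166-10674195, with the match starting 184 bases upstream of the TSS. Those of EPHB2 and EPHB3 lie on the plus strand at chr1:22710726-22710755 and chr3:184561664-184561693, with matches that read as a Helper site on the opposite strand and start 100 and 109 bases upstream. In the whole windows, JAG1 had 1 Helper match and 5 short Helper matches, EPHB2 5 and 15, and EPHB3 2 and 9. None of the 3 windows held a WRE. Of 15842 windows of protein-coding genes, 54.1% held a Helper match, 87.7% a short Helper match and 5.30% a WRE. Holding a Helper match and lacking a WRE were thus each common. How common the numbers of matches are was not examined. None of the 13 listed peaks of the 3 genes held a Helper site, so the printed matches lie in none of them.

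Most listed peaks of the 3 genes were distal, as were most peaks of the lists that held them. Of the 13 peaks, 10 lay more than 20 kb from the TSS, a distance also exceeded by 68.1% of all dnTCF1EWT peaks at 0 h, 65.2% at 2 h and 62.3% at 9 h, and by 76.6 and 80.2% of all dnTCF1Emut peaks at 2 and 9 h. The 13 peaks fell into 9 separate sites, so some of the 10 distal peaks are the same site listed again. A site 45.8 kb upstream of JAG1 was listed for dnTCF1Emut at 2 and 9 h and for dnTCF1EWT at 9 h. A site 58.9 kb upstream of EPHB3 was listed in all 3 dnTCF1EWT lists, including that of untreated cells. The other 7 sites were each listed once. These 7 peaks were 148 to 367 bp long with scores of 51.60 to 79.21, whereas the 6 peaks of the recurring sites were 391 to 711 bp long with scores of 72.57 to 228.40.

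**Figure D1:**
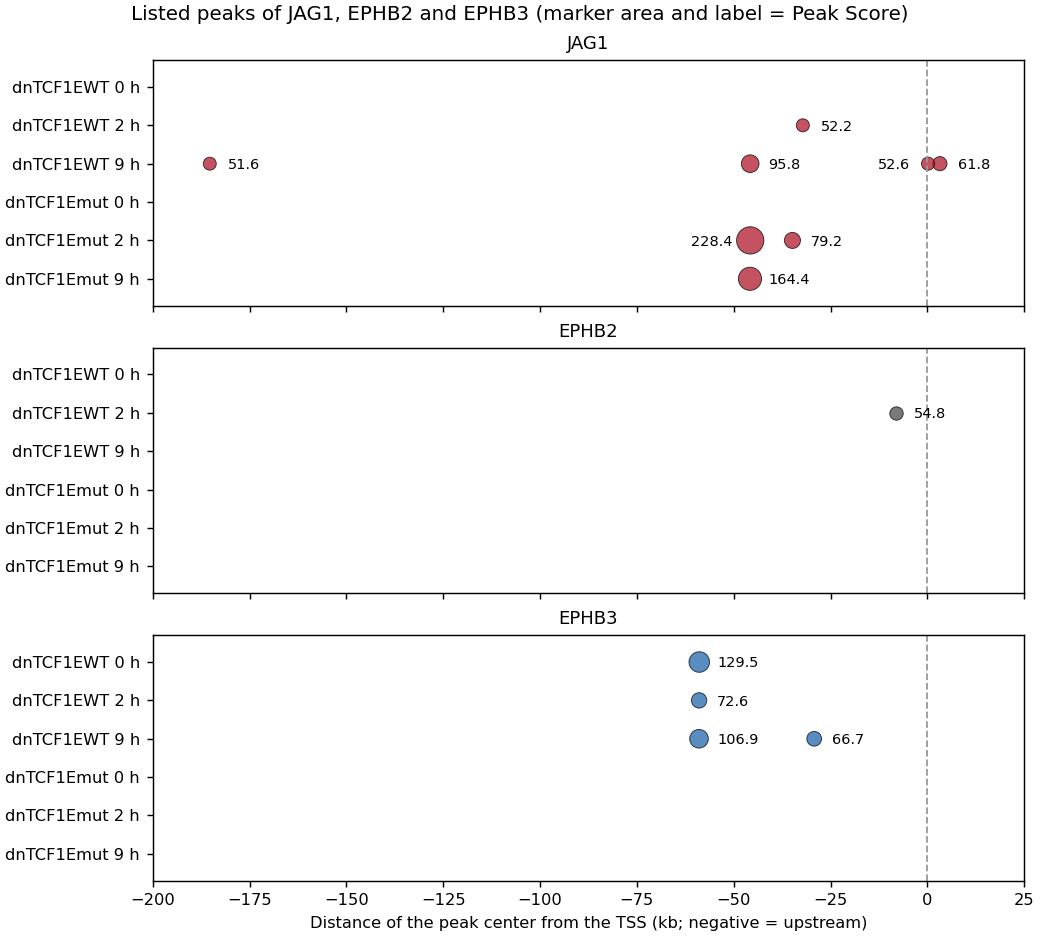
Position of each listed peak of JAG1, EPHB2 and EPHB3 relative to the TSS (x axis, kb) in the 6 lists (rows), with marker area and label giving the peak score. The JAG1 site 45.8 kb upstream appears in 3 lists and the EPHB3 site 58.9 kb upstream in the 3 dnTCF1EWT lists, and EPHB2 has a single peak.

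JAG1, the Notch ligand, had its strongest peak in the dnTCF1Emut cells and not in the dnTCF1EWT cells. This dnTCF1Emut peak at 2 h spanned positions 10700072 to 10700782 of chromosome 20 (hg19), was 711 bp long and scored 228.40, which placed it at rank 132 of 1883. Its dnTCF1Emut counterpart at 9 h (10700248 to 10700728, 481 bp) scored 164.42 and held rank 18 of 354. For dnTCF1EWT at 9 h the peak (10700153 to 10700722, 570 bp) scored 95.78 and held rank 632 of 12996. The JAG1 site was thus within the upper 7.01% of each list that held it, and its score was 2.82, 2.49 and 1.68 times the list median in the same order. The region was intergenic in all 3 lists, and the peak centers lay within 61.0 bp of one another. No peak was listed there for dnTCF1EWT at 2 h or in the untreated cells of either line. The dnTCF1Emut 2 h score was 4.57 times the lowest score that was listed for dnTCF1EWT at 2 h (50.01), and the dnTCF1EWT 9 h score was 1.92 times that value.

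The 3 peaks of this JAG1 site shared 475 bp, from 10700248 to 10700722. Each held 2 WREs and no short Helper or Helper site. Because the dnTCF1Emut 2 h peak contains the other peaks, the same 2 WREs were counted each time and they lie in the shared 475 bp. The GC content was 32.8 to 35.2%, and no CpG was present in any of the 3 peaks. Over all peaks, the median GC content was 37.1 and 35.6% for dnTCF1Emut at 2 and 9 h. For dnTCF1EWT it was 48.9 and 51.3%, so the lists of the 2 lines differ in base composition as a whole. Whether this difference bears on the JAG1 scores was not tested. At least 2 WREs were held by 12.4% of all dnTCF1Emut peaks at 2 h, 15.0% at 9 h and 1.76% of all dnTCF1EWT peaks at 9 h. The JAG1 site thus held matches to the WRE and none to either Helper motif, and lacking a Helper motif was common. A short Helper site was present in 38.9 and 30.8% of all dnTCF1Emut peaks at 2 and 9 h and 55.4% of all dnTCF1EWT peaks at 9 h. A Helper site was present in 4.35, 4.24 and 4.83% in the same order.

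The absence from the dnTCF1EWT 2 h list was compared with other strong dnTCF1Emut sites. Of all dnTCF1Emut 2 h peaks, 27.9% overlapped a dnTCF1EWT 2 h peak, 13.6% a dnTCF1EWT 9 h peak and 12.4% a dnTCF1Emut 9 h peak. Among the 132 dnTCF1Emut 2 h peaks that scored at least as high as the JAG1 peak, 80 (60.6%) overlapped a dnTCF1EWT 2 h peak. Of the 77 dnTCF1Emut 2 h peaks found in both 9 h lists, 19 (24.7%) had no dnTCF1EWT 2 h peak. JAG1 thus belonged to the smaller share in both cases.

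**Figure D2:**
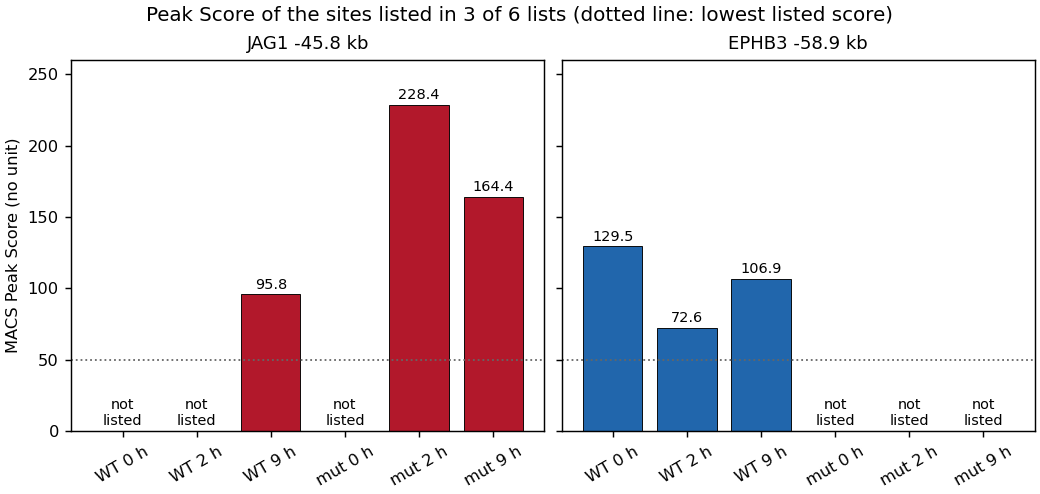
Peak score (y axis) in the 6 lists (x axis) of the sites 45.8 kb upstream of JAG1 (left) and 58.9 kb upstream of EPHB3 (right), with the lowest listed score as a dotted line. JAG1 scored 228.4 for dnTCF1Emut at 2 h, 164.4 for dnTCF1Emut at 9 h and 95.8 for dnTCF1EWT at 9 h, and EPHB3 scored 129.5, 72.6 and 106.9 in the dnTCF1EWT lists.

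The JAG1 score fell between 2 and 9 h of dnTCF1Emut induction, but by less than at 173 of the regions (74.2%) that both lists held. On the log2 scale, the score at 9 h over that at 2 h came to -0.47. Over all 233 regions that the dnTCF1Emut lists shared, the median was -1.07 (quartiles -1.67 and -0.47), and 10.3% scored higher at 9 h than at 2 h. Relative to this median the JAG1 ratio was 0.60, so its direction turned once the general fall in score was taken out. With each score divided by the median of the 300 highest scores of its list, the log2 ratio was 1.17. These medians were 70.9 for dnTCF1Emut at 9 h and 221 at 2 h. The lists held 354 and 1883 peaks, so the top 300 was most of the 9 h list only, and this scaling depends on list size.

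In contrast, dnTCF1EWT scored lower than dnTCF1Emut at this JAG1 site at 9 h, where most shared regions went the other way. Set over the dnTCF1Emut score, the dnTCF1EWT score of JAG1 came to -0.78 on the log2 scale. The median over the 89 regions shared at 9 h was 0.78 (quartiles 0.02 and 1.38), the dnTCF1EWT score exceeded that of dnTCF1Emut at 77.5% of them, and 5 regions had a lower ratio than JAG1. Against dnTCF1Emut at 2 h, dnTCF1EWT at 9 h gave a log2 ratio of -1.25 at JAG1. As these lists come from different induction times and lines, this pair is given for completeness only. Over the 256 regions shared by these lists the median was -0.17 (quartiles -0.84 and 0.59), 43.4% scored higher for dnTCF1EWT at 9 h, and 41 regions had a lower ratio than JAG1. With scores scaled to the top 300 in the same way, the 9 h ratio between the lines was -2.24, and -1.56 relative to the median of the shared regions. The top 300 had a median of 196 among 12996 dnTCF1EWT peaks and 70.9 among 354 dnTCF1Emut peaks, so the value of -2.24 also depends on list size.

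A second dnTCF1Emut 2 h peak lay 34.8 kb upstream of JAG1, from 10689347 to 10689713. It scored 79.21 (rank 978 of 1883), held 1 WRE and no short Helper site, and had a GC content of 38.4%. At least 1 WRE was found in 36.0% of all dnTCF1Emut 2 h peaks. At least 2 peaks were listed for 19.3% of the genes named in the dnTCF1Emut 2 h list. No other list had a peak at this site, as for 50.8% of the dnTCF1Emut 2 h peaks.

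The only JAG1 peak of dnTCF1EWT at 2 h was close to the threshold. It lay 32.2 kb upstream of the TSS, from 10686763 to 10686934, scored 52.22 (rank 4609 of 5585) and did not overlap any peak of another list. It held no match to any of the 3 motifs, as did 39.9% of the dnTCF1EWT 2 h peaks for the WRE and the short Helper site. Of all dnTCF1EWT 2 h peaks, 78.2% overlapped no peak of the other 5 lists.

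At 9 h, dnTCF1EWT had 4 JAG1 peaks, and the 3 besides the distal WRE site were weak. The gene body held 2 of them. A peak in intron 2 of 25 (NM_000214), 3.23 kb downstream of the TSS and from 10651382 to 10651550, scored 61.78 (rank 4079 of 12996) and held 2 short Helper sites. A peak in the 5′ UTR in exon 1 of 26, from 10654427 to 10654618 with its center 172 bp downstream of the TSS, scored 52.60 (rank 9313). The third lay in an AluSx4 element 185 kb upstream, from 10839884 to 10840031, scored 51.60 (rank 10307) and held none of the motifs, like 41.7% of the dnTCF1EWT 9 h peaks. Alu elements held 53.3, 48.5 and 76.0% of all dnTCF1EWT peaks at 0, 2 and 9 h. For dnTCF1Emut the shares were 1.27, 0.478 and 1.13% in the same order, so the lines differed before induction too. Of the genes named in the dnTCF1EWT 9 h list, 5.38% had 4 or more peaks.

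The exon 1 peak of JAG1 was the only one of the 13 within 2 kb of a TSS, where 5.15% of all dnTCF1EWT 9 h peaks lay. It reached from 76 to 267 bp downstream of the TSS and held 4 short Helper sites in 192 bp, the most of any member peak, with a GC content of 54.2%. It held no Helper site and no WRE. Among the dnTCF1EWT 9 h peaks within 2 kb of a TSS, 22.1% had 4 or more short Helper sites. A 5′ UTR annotation was given to 7 of the 12996 peaks (0.0539%).

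**Figure D3:**
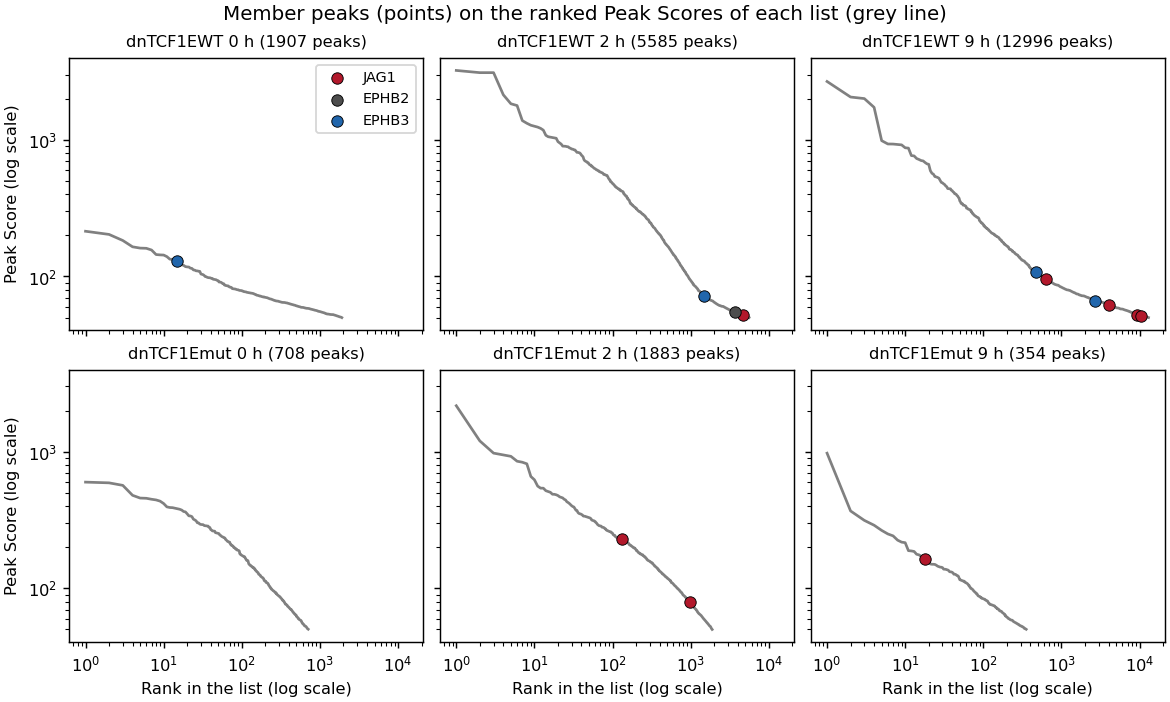
Ranked peak scores of each list (grey line, both axes logarithmic) with the peaks of JAG1, EPHB2 and EPHB3 as points. The JAG1 site lies at rank 132 for dnTCF1Emut at 2 h and rank 18 at 9 h, EPHB3 lies at rank 15 in untreated dnTCF1EWT cells, and all 3 dnTCF1EWT 2 h points lie outside the top 1000 peaks.

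EPHB3 had its highest score before any dnTCF1E was induced. The site 58.9 kb upstream, on chromosome 3 of hg19, was listed in untreated dnTCF1EWT cells from 184220426 to 184220965 with a score of 129.46, rank 15 of 1907. At 2 h the dnTCF1EWT peak, from 184220391 to 184220929, scored 72.57 (rank 1480 of 5585). At 9 h it lay from 184220439 to 184220829 and scored 106.94 (rank 478 of 12996). The induced scores were therefore both below that of the untreated cells. None of the dnTCF1Emut lists held a peak at this site. Anti-FLAG signal at this EPHB3 site was thus present in the dnTCF1EWT line without doxycycline, and a part for dnTCF1E in its later scores was not tested.

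Few peaks of untreated dnTCF1EWT cells recurred after induction as the EPHB3 site did. Of the 1907 dnTCF1EWT 0 h peaks, 4.14% overlapped a 2 h peak and 8.34% a 9 h peak of the same line. Both were overlapped by 27 (1.42%), and 26 of these (1.36%), EPHB3 included, overlapped no dnTCF1Emut peak. Recurrence was more common in the dnTCF1Emut line. Of its 708 peaks at 0 h, 45.6% overlapped a 2 h peak and 16.7% a 9 h peak of that line. At EPHB3, the score at 2 h over that at 0 h came to -0.84 on the log2 scale, against a median of -0.01 (quartiles -0.24 and 0.20) over 78 shared regions, of which 48.7% scored higher at 2 h and 2 had a lower ratio than EPHB3. Between 0 and 9 h the ratio was -0.28, with a median of 0.11 (quartiles -0.16 and 0.44) over 161 regions, 59.0% of them higher at 9 h. From 2 to 9 h the EPHB3 score rose, with a log2 ratio of 0.56, whereas the median over 841 regions was -0.35 (quartiles -1.29 and 0.14) and 33.3% scored higher at 9 h. With each score divided by the median of the 300 highest scores of its list, the EPHB3 ratios were -3.23, -1.68 and 1.54 in the same order, larger in size and unchanged in direction. The medians of the top 300 were 73.8, 387 and 196 at 0, 2 and 9 h, in lists of 1907, 5585 and 12996 peaks. The top 300 was thus a different share of each list.

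**Figure D4:**
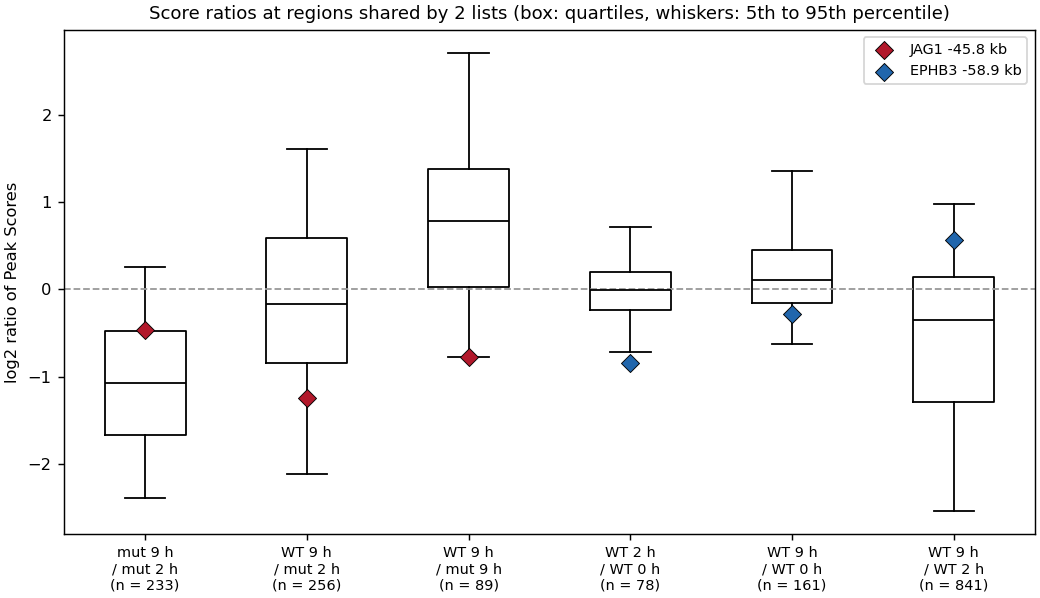
Log2 ratio of peak scores (y axis) over all regions shared by 2 lists (boxes with median and quartiles, whiskers from the 5th to the 95th percentile, number of regions under each), with the JAG1 and EPHB3 sites as diamonds. JAG1 lies at -0.78 for dnTCF1EWT over dnTCF1Emut at 9 h, where the median is 0.78, and EPHB3 at 0.56 for dnTCF1EWT 9 h over 2 h, where the median is -0.35.

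No WRE was counted in any peak of this EPHB3 site. The number of short Helper sites was 2 in the 0 h peak, 1 in the 2 h peak and 0 in the 9 h peak. A short Helper site was present in 45.9% of all dnTCF1EWT peaks at 0 h, 54.1% at 2 h and 55.4% at 9 h. The 9 h interval of 391 bp lies within both of the others, so the short Helper sites counted at 0 and 2 h lie outside it or across its edge. The GC content was 53.6 to 54.3%.

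EPHB3 had 1 more peak, in an AluSq element 29.2 kb upstream, from 184250257 to 184250477. It was listed for dnTCF1EWT at 9 h with a score of 66.71 (rank 2689 of 12996) and held 1 short Helper site and no WRE. Of the genes named in the dnTCF1EWT 9 h list, 35.2% had 2 or more peaks. No other list held a peak there, as for 92.1% of the dnTCF1EWT 9 h peaks.

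EPHB2, the other B-type receptor, had 1 peak in all lists together. It was listed for dnTCF1EWT at 2 h, on chromosome 1 of hg19 from 23029044 to 23029195, 8.21 kb upstream of the TSS in a MIRc element. Its score was 54.79 (rank 3690 of 5585), and it held 1 short Helper site and no WRE in 152 bp. By position, 1 other peak lay within 100 kb of the EPHB2 TSS. It was a dnTCF1EWT 9 h peak in intron 1 of 15 of EPHB2 (NM_004442), assigned to MIR4684, with a score of 51.10 (rank 10712 of 12996) and no motif match. Neither peak scored far above the lower limit of the lists.

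Across the 3 genes, a WRE was counted in 4 of the 13 peaks, all of them upstream of JAG1 and with a GC content of at most 38.4%. These were both dnTCF1Emut peaks at 2 h, the single dnTCF1Emut peak at 9 h and 1 of the 6 dnTCF1EWT peaks at 9 h. Of these 4 peaks, 3 are the JAG1 site 45.8 kb upstream, where the same 2 WREs were counted each time. Over all peaks a WRE was present in 36.0 and 30.5% for dnTCF1Emut at 2 and 9 h, and in 5.66, 16.3 and 6.56% for dnTCF1EWT at 0, 2 and 9 h. A short Helper site was counted in 6 of the 10 dnTCF1EWT peaks and in none of the 3 dnTCF1Emut peaks, beside 45.9, 54.1 and 55.4% of all dnTCF1EWT peaks at 0, 2 and 9 h and 38.9 and 30.8% of all dnTCF1Emut peaks at 2 and 9 h. The 10 dnTCF1EWT peaks count the EPHB3 site 58.9 kb upstream 3 times. The dnTCF1Emut peaks count the JAG1 site 45.8 kb upstream at both 2 and 9 h, so peaks are not separate sites. Neither motif was held by 3 of the 13 peaks, 1 for dnTCF1EWT at 2 h and 2 at 9 h, and by 50.9, 39.9 and 41.7% of all dnTCF1EWT peaks and 44.9 and 54.8% of all dnTCF1Emut peaks in the same order. No member peak held both motifs, as was so for most peaks of these 5 lists, where both were present in 2.41, 10.3 and 3.68% for dnTCF1EWT and 19.8 and 16.1% for dnTCF1Emut. The 9 member peaks without a WRE had a GC content of 42.4% or more. None of the 13 held the longer Helper site, which was present in 3.83, 7.23 and 4.83% of the dnTCF1EWT peaks at 0, 2 and 9 h and in 4.35 and 4.24% of the dnTCF1Emut peaks at 2 and 9 h. A score of 100 or more was reached by 4 of the 13 peaks, JAG1 for dnTCF1Emut at 2 and 9 h and EPHB3 for dnTCF1EWT at 0 and 9 h. Over all peaks this score was reached by 1.73, 16.6 and 4.35% for dnTCF1EWT at 0, 2 and 9 h, and by 35.8 and 19.2% for dnTCF1Emut at 2 and 9 h.

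**Figure D5:**
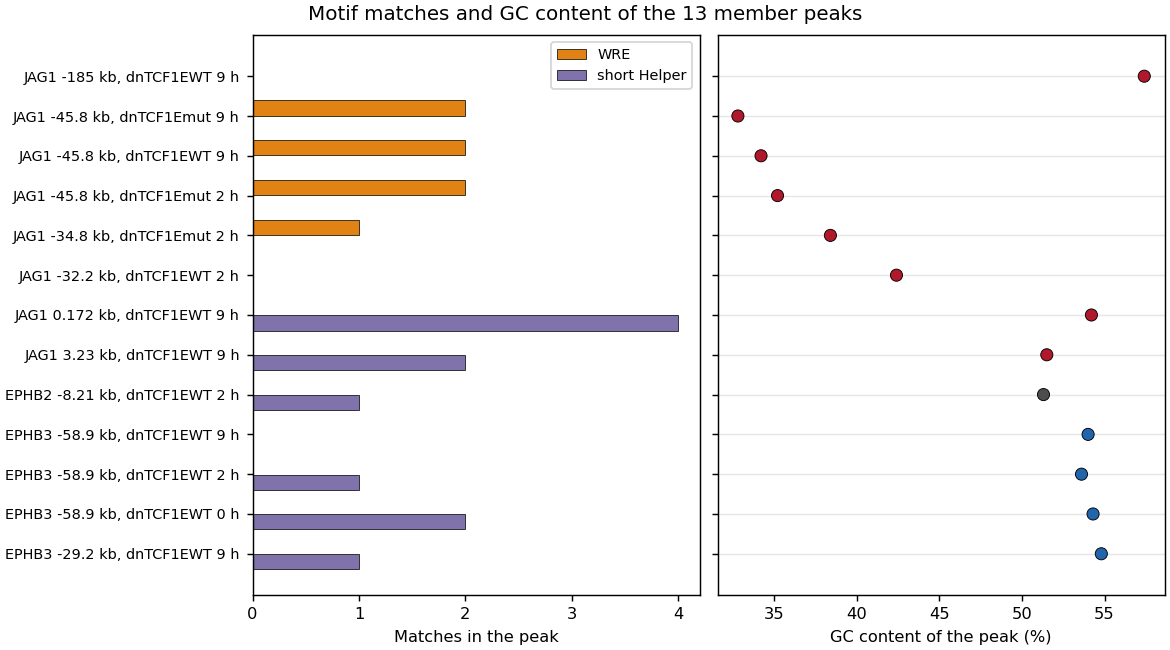
Number of WREs and short Helper sites (left, x axis) and GC content in % (right, x axis) of the 13 peaks of JAG1, EPHB2 and EPHB3, 1 row per peak. The 4 peaks with a WRE are the JAG1 peaks at 45.8 and 34.8 kb upstream, with 32.8 to 38.4% GC, and the JAG1 peak in exon 1 holds 4 short Helper sites.

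The lists in which the 3 genes were named did not coincide. JAG1 was named in the induced lists of both proteins and in neither untreated list, a pattern shared by 69 of the 10699 genes (0.645%, JAG1 included). EPHB3 was named in the 3 dnTCF1EWT lists only, like 323 genes (3.02%), and EPHB2 in the dnTCF1EWT 2 h list only, like 1315 genes (12.3%). By the highest score in each of the 6 lists, on a log10 scale with unlisted genes set to 50.01, the genes nearest to JAG1 were CDC42EP3 (Euclidean distance 0.181), RASSF2 (0.304) and CDH18 (0.316). CDC42EP3 scored 62.35 and 66.47 for dnTCF1EWT and 210.86 and 171.43 for dnTCF1Emut at 2 and 9 h. Nearest to EPHB3 were LOC100169752 (0.128), SNTG2 (0.153) and CHML (0.177). SNTG2 scored 139.70 in untreated dnTCF1EWT cells, 67.91 at 2 h and 76.31 at 9 h. For EPHB2, 35 genes (0.327%) had an identical set of scores, among them ADPGK, BBOX1 and C16orf46.

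Genes of the Notch pathway were named mainly in the dnTCF1EWT 9 h list, as were named genes in general. Of 40 Notch genes, 14 (35.0%) were named in at least 1 list, against 43.8% of 20052 RefSeq protein-coding genes. Among these 14, 3 were named for dnTCF1EWT at 0 h, 5 at 2 h and 13 at 9 h (21.4, 35.7 and 92.9%). JAG1 alone was named for dnTCF1Emut at 2 and 9 h. Of the 10699 genes named in any list, 15.8, 40.1 and 76.5% were named for dnTCF1EWT at 0, 2 and 9 h, and 5.57, 13.9 and 3.08% for dnTCF1Emut. Of the ligands, DLL3 was the only one named besides JAG1, with a score of 53.66 at 9 h. Of the 4 receptors, NOTCH3 had a single peak with a score of 51.10 for dnTCF1EWT at 9 h.

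The 5 other Notch genes with the highest induced scores were downstream or accessory factors, and each had its highest score for dnTCF1EWT. MAML3, a co-activator of the Notch complex, scored 129.82 at 9 h in intron 1, and POFUT1, which adds fucose to Notch receptors, scored 124.19 at 9 h with 1 WRE. NRARP, a feedback inhibitor, scored 111.73 at 9 h and was also listed in untreated dnTCF1EWT cells with a score of 53.28. HEY1, a transcriptional repressor induced by Notch, scored 88.62 at 9 h. RBPJ, the DNA-binding partner of Notch, scored 82.71 at 2 h and 59.10 at 9 h, at 40173 and 40131 bp upstream of the TSS. None of these 5 genes had a listed dnTCF1Emut peak. JAG1 as the single Notch gene in the dnTCF1Emut lists makes 7.14% of the 14 at 2 h and at 9 h, beside 13.9 and 3.08% of all named genes, and with so few genes 1 is near those shares.

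In the Eph and ephrin family, 15 of 22 genes (68.2%) were named in at least 1 list, against 43.8% of protein-coding genes. This count takes in peaks far from the TSS, such as those of EPHA4 at 743934 bp and EFNA5 at 807784 bp. The length and spacing of genes were not taken into account. Of these 15, 6 were named for dnTCF1EWT at 0 h, 7 at 2 h and 9 at 9 h (beside 15.8, 40.1 and 76.5% of all named genes). For dnTCF1Emut, 1, 2 and 2 were named at 0, 2 and 9 h (beside 5.57, 13.9 and 3.08% of all named genes). EPHA4, an A-type receptor, had the highest induced score of the family, 396.69 for dnTCF1Emut at 2 h (rank 31 of 1883) in intron 3, with 3 WREs, and it scored 137.79 there at 9 h with 2 WREs. It had no dnTCF1EWT peak at that intronic site. EFNA5, an A-type ephrin, scored 197.66 for dnTCF1EWT and 144.81 for dnTCF1Emut at 2 h at a site in intron 1 with 1 short Helper site and no WRE. EPHA6 scored 94.94 for dnTCF1EWT at 9 h, EPHA2 87.01 at 2 h, and EFNB2, a B-type ephrin ligand of the EPHB receptors, 79.61 at 9 h.

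Of the other B-type receptors, EPHB1 was listed in untreated dnTCF1EWT cells with a score of 94.60 (rank 47 of 1907), and it had a dnTCF1Emut peak at 9 h that scored 50.22 at 522972 bp from the TSS. EPHB4 had 3 peaks for dnTCF1EWT at 9 h, the highest at 64.50. EPHB6 had 1 for dnTCF1EWT at 2 h, which scored 56.49.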

How the data were processed

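ChIP-seq reads of DLD1 cells were processed by the authors with CASAVA 1.8.2, Bowtie2 2.0.0, MACS 1.3 and HOMER 3.16 on hg19, per the labels, and duplicates were pooled before peaks were called. The deposited score of each peak is the MACS score. The deposited GC and CpG content is a fraction, given here in percent, and the motif columns are numbers of matches. Positions are 1-based.

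Peaks were taken by gene name, ranked by score within their list, and called shared if they overlapped by any base, and the highest-scoring partner was used. No test was run, since each condition is 1 list. Shares over all peaks or genes are descriptions. The overlap code was tested on simulated data with planted overlaps. The pathway genes named are the 5 of each gene list with the highest score in an induced list, and the most similar genes are the 3 nearest. EPHB1, EPHB4, EPHB6, DLL3, NOTCH3 and MIR4684 fall outside that rule and were named after their values were seen. The 3 genes and the gene lists were chosen with earlier results of these data known. The TSS positions of the lists (hg19) and of the promoter windows (GRCh38) may differ. The input libraries were not used here. Alternatives changed how peaks were assigned, the score threshold, the overlap and the scale of the scores. Python 3.11.15, NumPy 2.4.6, pandas 2.3.3 and matplotlib 3.10.9 were used.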

Additional observations from a re-analysis of the deposited data

Results flagged for a closer look

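At the JAG1 site 45.8 kb upstream, the 2 lines moved in opposite directions between 2 and 9 h. The dnTCF1Emut score was lower at 9 h, with a log2 ratio of -0.47, whereas dnTCF1EWT was not listed at 2 h and scored 95.78 at 9 h. With 1 list per condition the difference was not tested, and the dnTCF1Emut ratio changed sign when scaled to the other regions.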

How the results depend on the processing

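The number of member peaks per list was the same when peaks within 100 kb of the TSS were taken whatever gene they named, although at 9 h the dnTCF1EWT peak named for MIR4684 replaced the JAG1 peak 185 kb upstream. When peaks overlapping those of untreated cells were left out, the single dnTCF1EWT 0 h peak was removed (0 peaks), and 2 and 5 of the 3 and 6 peaks at 2 and 9 h remained. With a score of 100 or more, no dnTCF1EWT 2 h peak (0), 1 dnTCF1EWT 9 h peak and 1 dnTCF1Emut 2 h peak were left, and among the 1000 highest-scoring peaks the dnTCF1EWT counts were 0 at 2 h and 2 at 9 h. The 6 overlaps between member peaks stayed at 6 under both stricter rules of overlap. Ratios of scores depended on the scale, and the cause was not tested. The top 300 was a different share of each list, and most of the list for dnTCF1Emut at 9 h, which held 354 peaks. For JAG1, dnTCF1Emut 9 h over 2 h changed from -0.47 to 1.17 (scores divided by the median of the top 300) or 0.60 (ratio divided by the median of all shared regions), and dnTCF1EWT over dnTCF1Emut at 9 h from -0.78 to -2.24 or -1.56. For EPHB3, scaling to the top 300 gave -3.23 for 2 h over 0 h, -1.68 for 9 h over 0 h and 1.54 for 9 h over 2 h, with unchanged direction. Counting motifs per kb rather than per peak changed each motif ratio examined between lists at the recurring sites by less than 1.5 times. This limit describes the change of counting and not the size of the ratios themselves. The motif recount was not run, since hg19 sequence was not used here, and no replicate could be left out. No paired analysis was possible because each condition is 1 pooled list and no test was made.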
